A study of Mus musculus with 24 samples.

Results

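Trametinib was set beside chemotherapy after 6 h in LLC1 cells, a mouse line derived from the Lewis lung carcinoma, with 3 libraries on each side, 6 of the 24 samples of the series. The 6 samples were chosen by their labelled treatment and time, and no measured value entered the choice. The trametinib cells received 10 nM of this inhibitor of the kinase MEK. The chemotherapy cells received 2.5 µM cisplatin, which crosslinks DNA, with 2.5 µM pemetrexed, an antifolate. Untreated cells, which received only 0.1% DMSO, and cells given all 3 drugs at these doses (the combination) were collected at the same time, also as 3 libraries each. The same 4 treatments were also collected at 24 h. The labels state DMSO for the untreated cells alone, and all groups share a single tumour line grown without host cells. Neither arm of the comparison is untreated, so a difference can come from either drug treatment. The untreated level is given beside some of the genes, and the other differences are not to be read as changes from untreated cells.

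MEK activates the kinase ERK, which turns on early transcription factors, growth factors, cyclin D1 and a set of inhibitors that feed back on the pathway itself. Cisplatin lesions activate the checkpoint kinases and p53, which induces genes of arrest and death. Pemetrexed inhibits thymidylate synthase and the purine enzyme GART, among others, and so limits the supply of nucleotides for DNA synthesis.

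Levels are given as TPM, which relate each gene to the transcripts of the whole library and correct for transcript length. How many reads stand behind a level cannot be read from TPM. In the 3 chemotherapy libraries 11328 to 11440 genes reached 1 TPM, and 11581 to 11599 did so in the 3 trametinib libraries. Pearson correlations of log2(TPM + 1) across genes were 0.985 to 0.991 within a group and 0.959 to 0.973 between the groups. Markers of the carcinoma line (Vim, Krt8, Krt18 and Mki67 among them) were all above 1 TPM. Of the 6 macrophage markers only Cd68 reached 1 TPM and Ptprc, Adgre1 and Itgam were at 0, and none of 6 T or NK cell, 3 B cell and 5 lung epithelium markers reached 1 TPM. Of the 3 red cell markers, Hba-a1, an alpha globin gene, stood at 1.57, 1.21 and 1.28 TPM with trametinib and 0.606, 0.137 and 0.433 TPM with chemotherapy (0.77 ± 0.28, adjusted p = 0.0244 by limma), without overlap, a call that ended without chemotherapy replicate 2 (0.63) or trametinib replicate 1 (0.70), while Hbb-bs was at 0 and Alas2 below 1 TPM. Alpha globin genes are near-identical copies, so this value is uncertain. Of the 4 endothelial markers Pecam1 and Vwf passed 1 TPM, while Cdh5 and Tek reached at most 0.036 and 0.025 TPM in the 6 libraries. In bulk RNA, fewer cells of a kind and less RNA per cell cannot be told apart.

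Of 12581 genes tested with limma on log2(TPM + 1), 7114 (56.5%) differed at an adjusted p under 0.05. With trametinib 4641 genes (36.9%) were higher and 2473 (19.7%) lower than with chemotherapy. A change of at least 2-fold was seen in 424 higher genes (3.37%) and 223 lower genes (1.77%). The libraries of the 2 groups did not overlap in 7140 genes (56.8%). The median difference over all genes tested was 0.10 on the log2 scale. Rescaling each library by its median ratio to the average library moved that median to -0.0039 and gave 3617 higher and 3518 lower genes, so that 50.7% of called genes were higher where TPM alone gave 65.2%. The split of all genes thus turned on the scaling, and small differences in either direction should be read against a shift of about this size. With so many genes called, the size of a difference and the levels carry more than the call. Below, a value after a mean TPM is the SD (n = 3), a value after a log2 difference is its standard error, differences are on the log2(TPM + 1) scale as trametinib minus chemotherapy, and each adjusted p is from limma with the Benjamini-Hochberg method over all genes tested.

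The 18 gene lists used here held 580 genes, of which 540 passed the filter on low values. Their members went in different directions. Each count of members called is to be read beside the shares of all genes tested, 36.9% higher and 19.7% lower. ERK output, ATF4 target, ribosome biogenesis and folate and nucleotide genes were mostly lower with trametinib, whereas genes of G2 and mitosis, contractile and matrix genes, and interferon-stimulated genes were mostly higher.

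**Figure D1:**
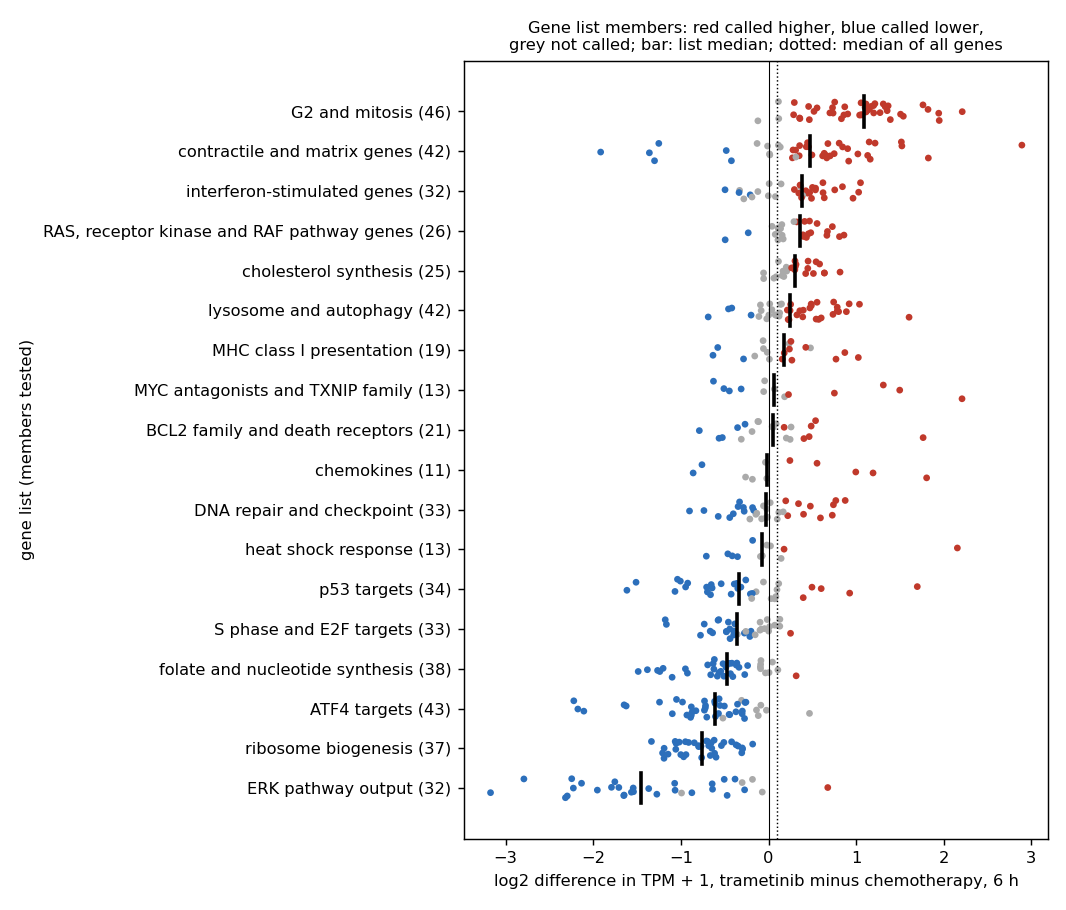
Each point is 1 tested member of a gene list, placed by its log2 difference in TPM + 1 (trametinib minus chemotherapy at 6 h, horizontal axis); black bars are list medians and the dotted line is the median of all genes tested, 0.10. Of the G2 and mitosis members 43 of 46 lie to the right in red, and all 37 ribosome biogenesis members lie to the left in blue.

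Genes that ERK switches on were lower with trametinib. Of 34 listed, 32 were tested, 27 were lower, 20 of them at least 2-fold, and 1 was higher, with a median of -1.45 against 0.10 for all genes. The EGF receptor ligands led. Areg, which encodes amphiregulin (ENSMUSG00000029378.5, chr5:91139599-91148432 in GRCm38), stood at 92.3, 88.7 and 95.7 TPM in the chemotherapy libraries and at 9.42, 10.1 and 8.55 TPM in the trametinib libraries, a difference of -3.17 ± 0.10 (adjusted p = 4.00e-14). The groups lay far apart, and the untreated mean of 57.7 TPM lay between them. The ligand genes Hbegf (-2.25 ± 0.082, adjusted p = 1.33e-13), Ereg (-1.37 ± 0.095, adjusted p = 5.28e-10) and Tgfa (-0.38 ± 0.092, adjusted p = 0.00148) were also lower, so all 4 ligands on the list moved one way. Tgfa was the lowest of them, at 1.21 TPM with chemotherapy.

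Among the inhibitors that ERK induces against its own pathway, 7 of 9 were lower and none was higher. Spry4, a Sprouty protein that restrains receptor signalling, stood at 36.5, 32.2 and 31.2 TPM with chemotherapy and 6.21, 9.11 and 4.35 TPM with trametinib (-2.23 ± 0.17, adjusted p = 2.47e-09). Dusp6, the phosphatase that removes phosphate from ERK in the cytoplasm, stood at 92.6, 81.3 and 76.9 and 24.5, 31.8 and 17.7 TPM in the same order (-1.75 ± 0.14, adjusted p = 3.56e-09). In both genes trametinib replicate 2 was the highest and replicate 3 the lowest of its group, and every trametinib library lay below every chemotherapy library. Dusp5 and Dusp4, related phosphatases, differed by -1.79 and -1.95. Spred1 (-0.18 ± 0.090, adjusted p = 0.0929) and Spred2 (-0.071 ± 0.074, adjusted p = 0.440), which act on RAF, did not pass the test, but both were called lower under median ratio scaling and without trametinib replicate 2 (-0.32 and -0.18).

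The ETS factors split. Etv4 stood at 97.1, 98.5 and 94.9 TPM with chemotherapy and 19.1, 24.6 and 13.7 TPM with trametinib (-2.32 ± 0.19, adjusted p = 6.36e-09), and Etv5 differed by -2.13 ± 0.20. Etv1, of the same subfamily, was the 1 gene on the list that was higher with trametinib, at 16.7, 20.9 and 11.97 TPM against 10.2, 9.01 and 10.00 TPM (0.68 ± 0.13, adjusted p = 1.63e-04). Its libraries did not overlap, and trametinib replicate 3 was the nearest to the chemotherapy group. Among early response factors, Egr1 was at 0.0251, 0.0224 and 0.0259 TPM with trametinib and 1.92, 1.97 and 2.05 TPM with chemotherapy, while Fosl1 was at 34.4 ± 6.58 and 104 ± 20.7 TPM, and Myc at 106 ± 15.7 and 224 ± 28.8 TPM. All 3 differed (-1.54 ± 0.10, -1.57 ± 0.14 and -1.07 ± 0.11, largest adjusted p = 1.32e-07). Junb did not pass (-0.99 ± 0.46, adjusted p = 0.0717), with chemotherapy libraries at 38.99, 9.78 and 10.1 TPM and replicate 1 alone high. Without chemotherapy replicate 2 or 3 it passed (-1.31 and -1.29), as it did under median ratio scaling (-1.10).

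Cyclin D1, which carries the growth signal into the cell cycle, had its gene Ccnd1 at 232, 198 and 189.8 TPM with chemotherapy and 57.7, 91.1 and 45.8 TPM with trametinib (-1.71 ± 0.16, adjusted p = 2.86e-08). The spread was wide in the trametinib group, from replicate 3 to replicate 2, and no library overlapped the other group. Hmga2, a chromatin architectural factor, was at 175 ± 17.2 and 55.9 ± 11.5 TPM, with the untreated mean above both at 323 TPM. The cytokine genes Il11 (22.1, 14.6 and 17.5 against 2.55, 1.32 and 1.44 TPM, -2.79 ± 0.21) and Lif (19.9, 18.6 and 18.9 against 3.23, 4.04 and 2.21 TPM, -2.30 ± 0.12) were among the 12 largest falls. That ranking took only called genes without overlap and with a group mean of 5 TPM or more, and no predicted genes or pseudogenes. The untreated means of Il11 and Lif (12.2 and 10.1 TPM) lay between the groups. Of the 27 called ERK output genes without overlap, 7 had all 3 untreated libraries between the groups and 4 above both. The other 16 had untreated libraries that overlapped a group. The combination mean lay nearer to trametinib than to chemotherapy in 30 of the 32 tested genes of the ERK output list (71.4% of all genes tested).

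**Figure D2:**
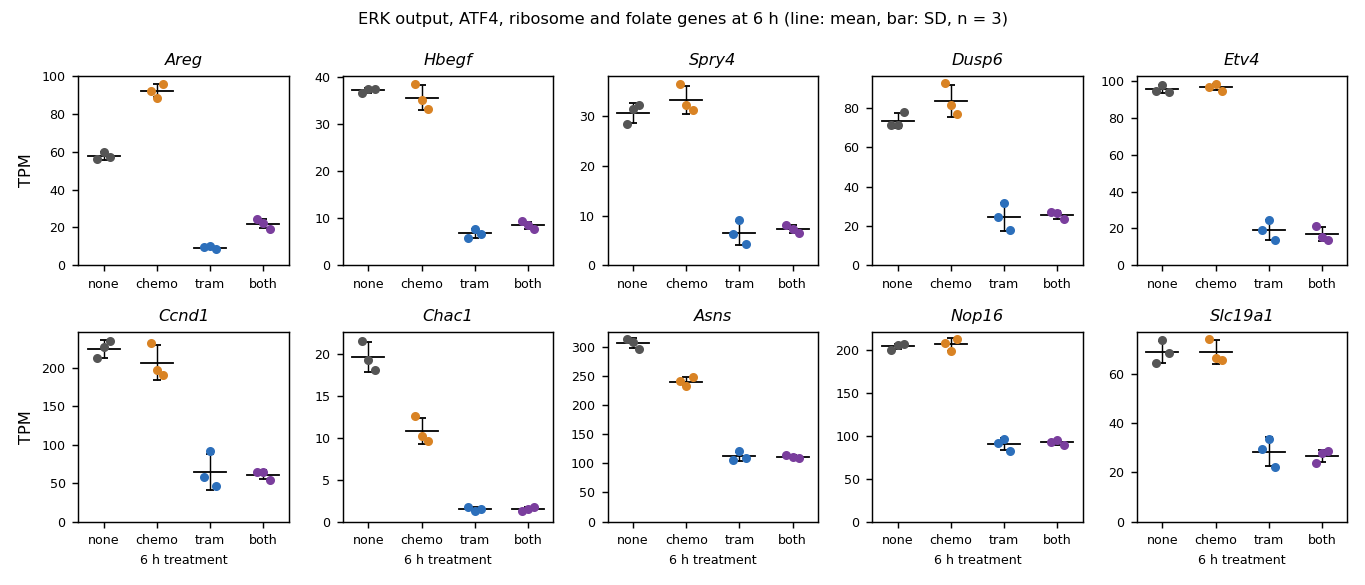
Points are single libraries at 6 h of untreated (none), chemotherapy (chemo), trametinib (tram) and combination (both) cells, lines are means and bars SD (n = 3), and the vertical axes give TPM from 0. In all 10 genes the trametinib libraries lie below the chemotherapy libraries, and in Areg the combination mean of 21.9 TPM lies above the trametinib mean of 9.35 TPM.

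Listed targets of ATF4, the transcription factor of the amino acid and integrated stress response, were lower with trametinib in 36 of 43 cases, and none was higher (median -0.61). With only the 6 libraries in the fit 33 were lower and 1 higher, and with only the 12 libraries of 6 h 34 were lower and 1 higher. ATF4 pairs with C/EBP factors on a composite motif, written here as TGATGNAA and searched on both strands of RefSeq promoter windows (GRCm38.p6) that run from 250 bases before to 50 bases after a transcript start. It stood in 14 of the 33 tested members with a window (42.4%), against 2.63% of 9150 tested genes with one. This is a description of letters and not a measure of binding. The 4 members below were the ones lower with trametinib at the smallest p whose motif lies upstream of the start, and show how close to it the motif can be. They are printed 5′ to 3′ on the strand of the gene, with the motif, or its reverse complement, in capitals. Asns lies at chr6:7693210-7693262 (minus strand), Chac1 at chr2:119351019-119351086 (plus strand), Slc7a11 at chr3:50443623-50443690 (minus strand) and Nupr1 at chr7:126625543-126625610 (minus strand).
Asns: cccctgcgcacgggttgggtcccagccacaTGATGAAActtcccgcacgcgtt
Chac1: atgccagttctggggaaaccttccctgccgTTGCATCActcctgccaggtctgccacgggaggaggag
Slc7a11: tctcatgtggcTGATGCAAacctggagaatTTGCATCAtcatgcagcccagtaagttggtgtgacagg
Nupr1: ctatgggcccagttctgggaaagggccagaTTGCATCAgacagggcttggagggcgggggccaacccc

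Of 12 ATF4 regulators 8 were lower (median -0.73), with wide differences between members. Chac1, a glutathione-degrading enzyme induced by ATF4, stood at 12.6, 10.2 and 9.68 TPM with chemotherapy and 1.78, 1.26 and 1.56 TPM with trametinib (-2.22 ± 0.14, adjusted p = 1.27e-10), and its window holds the motif 193 bases before the start. Trib3, a pseudokinase that dampens ATF4 signalling, stood at 35.4, 29.4 and 31.8 and 7.36, 6.43 and 5.33 TPM (-2.18 ± 0.12, adjusted p = 2.83e-11). Atf4 itself was at 389 ± 34.4 and 187 ± 8.07 TPM (-1.05 ± 0.055, adjusted p = 1.40e-11), whereas Ddit3, the death-associated factor CHOP, did not pass (-0.12 ± 0.068, adjusted p = 0.153) except without chemotherapy replicate 1 (-0.18) and under median ratio scaling (-0.23). No library of the 2 groups overlapped in Chac1, Trib3 or Atf4.

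All 9 genes of amino acid synthesis were lower (median -0.88). Asns, asparagine synthetase, stood at 241, 232 and 248 TPM with chemotherapy and 106, 121 and 109 TPM with trametinib (-1.10 ± 0.053, adjusted p = 5.15e-12). Cth, which makes cysteine, was at 32.5 ± 0.852 and 6.83 ± 1.13 TPM (-2.11 ± 0.10, adjusted p = 5.36e-12). Transporters followed in 7 of 9 cases, among them Slc7a11, the cystine transporter, at 8.33, 5.88 and 7.15 against 1.27, 1.90 and 1.58 TPM (-1.65 ± 0.11) and the glutamine transporter Slc1a5 at 149.5 ± 6.16 against 48.2 ± 8.37 TPM (-1.62 ± 0.093). Of 13 genes of tRNA charging and export 12 were lower, with smaller differences such as -0.72 ± 0.059 for the asparaginyl synthetase Nars. In this list the untreated cells were not like chemotherapy cells. Of the 35 called members without overlap, 29 had all 3 untreated libraries above both groups, as in Chac1 (21.6, 19.4 and 18.1 TPM) and Asns (314, 308 and 297 TPM). Among all genes lower with trametinib and without overlap, 361 of 2319 had them above both. Chemotherapy therefore lay between untreated and trametinib levels in the 29 list members.

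All 37 tested genes of ribosome biogenesis were lower with trametinib (median -0.76, 10 of them at least 2-fold), and the combination lay nearer to trametinib in all 37. Nop16, a factor of the large subunit, stood at 208, 199 and 214 TPM with chemotherapy and 91.2, 96.7 and 82.5 TPM with trametinib (-1.19 ± 0.061, adjusted p = 1.07e-11). The RNA polymerase I subunit Polr1b was at 68.4 ± 8.51 and 29.1 ± 4.42 TPM (-1.21 ± 0.088), and the nucleolar protein Nolc1 at 182 ± 5.34 and 81.8 ± 8.12 TPM (-1.15 ± 0.068). The difference in Rrp9, a protein of the U3 snoRNP (-1.34 ± 0.17, adjusted p = 1.59e-06), rested in part on chemotherapy replicate 1. The chemotherapy libraries were at 172, 109 and 102 TPM, with replicate 1 alone high. The E-box CACGTG, the motif of MYC and its partners, stood in 6 of 31 windows of the list (19.4%) and 11.9% of tested genes.

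MYC works as a dimer with MAX, and the MXD proteins compete with it for that partner. In the MYC network 4 of 8 genes were higher and 2 lower. Mxd4 stood at 25.3, 19.5 and 26.1 TPM with trametinib and 4.52, 4.61 and 3.77 TPM with chemotherapy (2.21 ± 0.10, adjusted p = 2.02e-12), and Mxd3 at 37.1, 25.2 and 22.3 and 13.2, 10.02 and 8.78 TPM (1.31 ± 0.25, adjusted p = 1.62e-04). Neither gene had overlapping libraries. Max was lower, at 68.2 ± 3.74 against 106 ± 5.51 TPM (-0.63 ± 0.052). Txnip, which binds thioredoxin and limits glucose uptake, was at 27.1, 34.3 and 37.5 TPM with trametinib and 10.4, 9.60 and 13.1 TPM with chemotherapy (1.498 ± 0.13, adjusted p = 1.79e-08). The whole list of 13 tested genes split into 5 higher and 4 lower, and into 4 higher and 5 lower under median ratio scaling.

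Genes of folate use and nucleotide synthesis were lower with trametinib in 29 of 38 tested cases, with 1 higher (median -0.47; 34 lower and none higher under median ratio scaling). All 7 tested genes that take up, trap or are hit by pemetrexed were lower. Slc19a1, the reduced folate carrier that imports pemetrexed, stood at 29.6, 33.5 and 22.1 TPM with trametinib and 74.4, 66.5 and 65.6 TPM with chemotherapy (-1.27 ± 0.14, adjusted p = 3.10e-07). Untreated cells were at 69.0 TPM, the level of the chemotherapy group. Among the drug's targets the untreated levels differed in place. Tyms was at 82.0 ± 3.87 TPM with trametinib, 111 ± 6.37 TPM with chemotherapy and 81.4 ± 2.81 TPM untreated (-0.43 ± 0.072, adjusted p = 3.78e-05). The untreated mean lay at the trametinib level and the chemotherapy mean above it. Gart, in contrast, was at 79.5 ± 7.30, 129 ± 1.87 and 130.3 ± 3.60 TPM (-0.69 ± 0.066, adjusted p = 3.88e-08), with untreated cells at the chemotherapy level.

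Of 8 one-carbon genes 5 were lower and 3 were not called, with a median of -0.45 close to that of the whole list. Mthfd2, the mitochondrial dehydrogenase, was at 86.8 ± 3.96 TPM with trametinib and 228 ± 13.2 TPM with chemotherapy (-1.38 ± 0.063, adjusted p = 2.26e-12). Shmt1, which moves a carbon from serine to folate, was at 18.3, 28.5 and 23.4 and 63.8, 68.4 and 67.3 TPM (-1.49 ± 0.13, adjusted p = 9.12e-09). The pyrimidine enzymes Umps (-1.10 ± 0.062) and Dctd (-1.20 ± 0.086) were also lower, and Samhd1, which breaks down dNTPs, was the 1 member higher (0.32 ± 0.11, adjusted p = 0.0153), a call that ended under median ratio scaling, without trametinib replicate 3 (0.28) and without chemotherapy replicate 2 (0.19).

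Target genes of p53 were mostly lower with trametinib. Of 36 listed targets 34 were tested, 21 were lower and 5 higher (median -0.33). Cdkn1a, which encodes the cyclin-dependent kinase inhibitor p21 (ENSMUSG00000023067.14, chr17:29090976-29100727), stood at 145, 120.5 and 131 TPM with trametinib and 334, 242 and 232 TPM with chemotherapy (-1.01 ± 0.12, adjusted p = 6.26e-07). Untreated cells were at 109.9, 108 and 123 TPM and combination cells at 237, 245 and 263 TPM, so the 6 libraries with cisplatin and pemetrexed all lay above the 6 without. Mdm2, the ligase that degrades p53, showed the same separation of libraries with and without cisplatin and pemetrexed. It was at 54.8, 61.8 and 65.5 TPM with trametinib and 127, 98.7 and 123 TPM with chemotherapy (-0.92 ± 0.088, adjusted p = 3.82e-08). The BH3 gene Pmaip1 (NOXA) was at 1.81, 2.58 and 2.42 and 9.62, 8.06 and 9.30 TPM (-1.62 ± 0.10, adjusted p = 6.19e-11), and again its untreated mean of 2.70 TPM lay at the trametinib level. Phlda3, an inhibitor of AKT, differed by -0.71 ± 0.054 and the nuclease Aen by -1.07 ± 0.085.

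Some members of the list went another way. Ccng2, an unusual cyclin that is also a FOXO target, was at 30.04, 24.5 and 30.6 TPM with trametinib and 6.75, 9.04 and 8.42 TPM with chemotherapy (1.70 ± 0.11, adjusted p = 1.76e-10), with untreated cells at 5.90 TPM. Sesn1, a sestrin that restrains mTORC1, was at 15.8, 14.99 and 17.7 and 7.02, 8.32 and 8.79 TPM (0.93 ± 0.071, adjusted p = 2.13e-09). The other 3 higher members, Rrm2b, Polh and Rev3l, differed by 0.50, 0.40 and 0.60, and Rrm2b by 0.32 without chemotherapy replicate 2. Plk3 was lower (-1.51 ± 0.12) with untreated cells at 27.7 TPM, the chemotherapy level, in contrast to Cdkn1a and Mdm2. Of the targets not called, Trp53inp1 stood at 11.6 ± 2.62 TPM with trametinib and 11.2 ± 1.40 TPM with chemotherapy, beside 3.63 ± 0.443 TPM in untreated and 33.2 ± 2.70 TPM in combination cells. Btg2, an antiproliferative gene, showed the same arrangement (9.40, 8.85, 3.69 and 17.1 TPM in that order). The combination mean lay nearer to trametinib in 16 of the 34 tested targets, against 71.4% of all genes.

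Genes of S phase were lower with trametinib in 19 of 33 cases and higher in 1 (median -0.36; 26 lower and none higher under median ratio scaling). The regulators of the step from G1 to S were lower in 7 of 7 cases. Ccne1, cyclin E1, stood at 24.2, 30.02 and 26.6 TPM with trametinib and 62.9, 60.7 and 62.3 TPM with chemotherapy (-1.18 ± 0.079, adjusted p = 3.38e-10), and its untreated mean of 35.5 TPM lay between. Cdc6, which loads the MCM helicase, was at 34.5, 38.8 and 38.7 and 61.3, 55.2 and 62.9 TPM (-0.67 ± 0.078, adjusted p = 5.72e-07), with untreated cells at 36.9 TPM, the trametinib level. The clamp gene Pcna was at 371 ± 15.6 and 518 ± 8.86 TPM (-0.48 ± 0.054). Licensing and fork genes were less uniform, with 6 of 14 and 6 of 12 lower, and the helicase subunits Mcm5 (0.013 ± 0.054, adjusted p = 0.857) and Mcm6 (0.071 ± 0.060, adjusted p = 0.334) did not differ by the test. Lig1, DNA ligase 1, was the 1 higher member (0.25 ± 0.083, adjusted p = 0.0149), and its call ended under median ratio scaling (0.13) and without trametinib replicate 2 (0.23). The combination mean lay nearer to trametinib in 6 of 33.

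Genes of G2 and mitosis were higher with trametinib in 43 of 46 cases, 27 of them at least 2-fold, and none was lower (median 1.08). Of the 43, all without overlap, 35 had the 3 untreated libraries between the 2 groups, and 8 had untreated libraries that overlapped one of them. Among all genes higher with trametinib and without overlap, 832 of 4243 had the untreated libraries between the groups. Aspm, which organises spindle poles, stood at 37.97, 41.9 and 45.3 TPM with trametinib and 9.24, 7.18 and 8.30 TPM with chemotherapy (2.21 ± 0.10, adjusted p = 1.73e-12), with untreated cells at 21.2, 24.3 and 23.03 TPM. The kinase Plk1, which drives mitotic entry (ENSMUSG00000030867.7, chr7:122159439-122169873), was at 97.7, 88.2 and 81.6 and 39.2, 30.6 and 32.4 TPM (1.37 ± 0.11, adjusted p = 3.52e-09) and at 68.9, 65.9 and 77.2 TPM untreated. Combination cells were at 33.8, 35.95 and 42.6 TPM, close to the chemotherapy level.

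All 22 spindle and kinetochore genes were higher. Nusap1, a microtubule binding protein, was at 65.8 ± 6.91 TPM with trametinib and 16.4 ± 1.53 TPM with chemotherapy (1.94 ± 0.079, adjusted p = 5.23e-13), Cenpe, a kinetochore motor, at 48.9 ± 4.17 and 16.6 ± 1.84 TPM (1.51 ± 0.082), and Ckap2l, a spindle protein, at 59.0 ± 4.68 and 15.97 ± 1.01 TPM (1.82 ± 0.066). Arhgap19, which acts on RhoA in mitosis, was at 42.4 ± 2.04 and 10.2 ± 0.640 TPM (1.95 ± 0.070), and Ccnb1, cyclin B1, at 267 ± 9.54 and 128 ± 6.95 TPM (1.06 ± 0.060, adjusted p = 4.14e-11). The 3 members that did not pass were Cdk1 (0.12 ± 0.068, adjusted p = 0.155), Aurkb (-0.12 ± 0.077, adjusted p = 0.192) and Bora (0.11 ± 0.050, adjusted p = 0.0628), and Aurkb was called lower under median ratio scaling (-0.24). Without trametinib replicate 1, Cdk1 (0.18) and Bora (0.14) were called higher. The combination mean lay nearer to trametinib in 18 of 46.

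Late cell cycle promoters often carry the CHR, TTTGAA, the element bound by the DREAM and MuvB complexes. On either strand it stood in 28 of 38 windows of the G2 and mitosis list (73.7%), against 14.1% of tested genes. The E2F motif TTTNNCGC stood in 15 of 28 windows of the S phase list (53.6%), against 10.1%. Of the members with a motif upstream of the start, the 4 G2 genes and 2 S phase genes at the smallest p are printed, since these 2 sets differ in the opposite direction between the treatments. Capitals mark the motif or its reverse complement, on the strand of the gene. They lie at chr19:41802144-41802209, chr2:129297213-129297272, chr9:70421686-70421751 and chr4:117178840-117178905 (all minus strand), and at chr9:109875482-109875549 and chr11:98907983-98908050 (plus strand).
Arhgap19: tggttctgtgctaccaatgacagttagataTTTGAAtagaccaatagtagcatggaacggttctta
Ckap2l: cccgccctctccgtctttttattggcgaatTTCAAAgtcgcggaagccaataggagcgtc
Ccnb2: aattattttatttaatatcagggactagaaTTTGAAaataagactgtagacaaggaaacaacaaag
Kif2c: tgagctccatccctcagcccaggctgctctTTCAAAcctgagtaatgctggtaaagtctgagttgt
Cdc25a: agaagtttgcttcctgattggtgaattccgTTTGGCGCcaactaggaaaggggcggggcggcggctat
Cdc6: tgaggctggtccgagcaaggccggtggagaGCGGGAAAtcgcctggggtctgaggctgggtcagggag
The genes Ccnb2, cyclin B2 (1.20 ± 0.049), and Kif2c, a kinesin that takes microtubule ends apart (1.12 ± 0.052), were higher, and Cdc25a, the phosphatase that activates CDK2, was lower (-0.78 ± 0.059). The ETS motif CCGGAAGT stood in 0 of 21 windows of the ERK output list and 9.70% of tested genes.

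**Figure D3:**
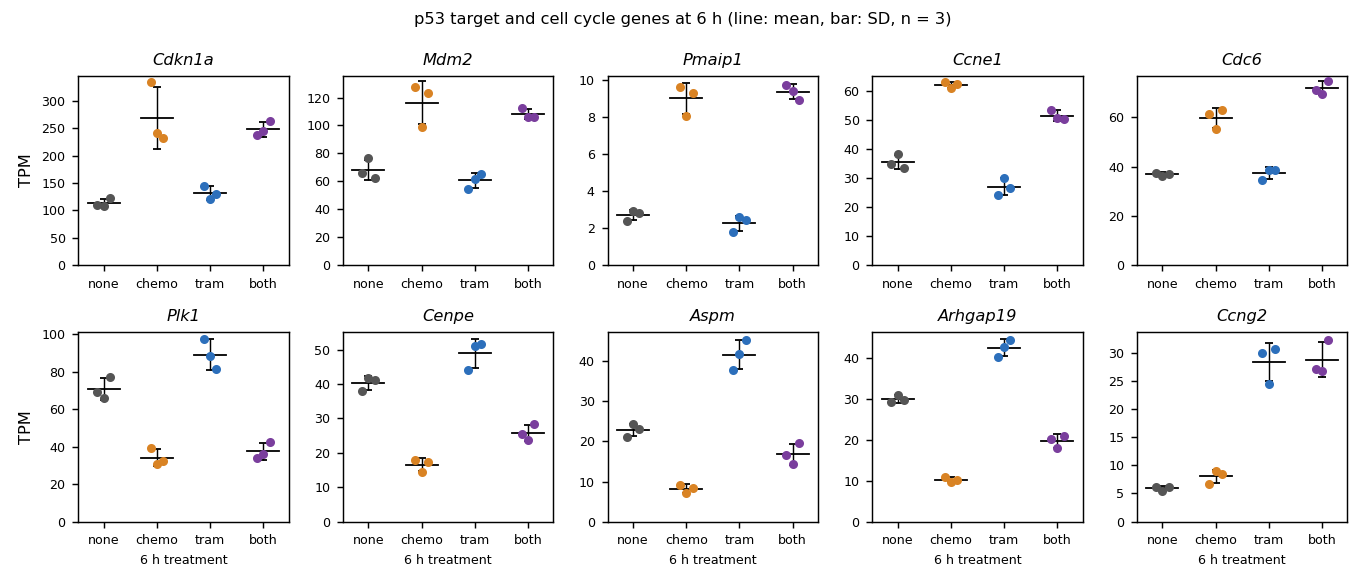
Points are single libraries at 6 h of untreated (none), chemotherapy (chemo), trametinib (tram) and combination (both) cells with means and SD (n = 3), in TPM from 0. Cdkn1a, Mdm2 and Pmaip1 are high in both groups that received cisplatin and pemetrexed, the mitotic genes Plk1, Cenpe, Aspm and Arhgap19 are highest with trametinib alone, and Ccng2 is high in both groups that received trametinib.

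Repair and checkpoint genes did not move as a group, with 10 of 33 higher and 11 lower (median -0.028; 7 higher and 16 lower under median ratio scaling). In crosslink repair, the Fanconi genes Fancc (8.15 ± 0.635 TPM with trametinib and 3.98 ± 0.182 TPM with chemotherapy, 0.88 ± 0.13) and Fancg (12.3 ± 2.76 and 6.77 ± 1.41 TPM, 0.77 ± 0.20) were higher. In recombination, the resection nuclease Exo1 was lower (13.6 ± 1.64 and 26.2 ± 1.32 TPM, -0.90 ± 0.071). The BCL2 family and death receptor list was also mixed, with 6 of 21 higher (28.6%) and 5 lower (23.8%). Of all genes tested 36.9% were higher and 19.7% lower, and the list median was 0.052. Bmf, a BH3 protein, stood at 4.39, 3.01 and 5.19 TPM with trametinib and 0.416, 0.841 and 0.307 TPM with chemotherapy (1.76 ± 0.17, adjusted p = 6.41e-08). Its libraries did not overlap, and the untreated mean was 0.406 TPM. The BH3 gene Bid was lower (-0.79 ± 0.11), as was the survival gene Bcl2l1, which encodes BCL-XL (-0.56 ± 0.069). Bcl2l11, which encodes BIM, was lower as well (-0.53 ± 0.089, adjusted p = 4.84e-05).

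Contractile and matrix genes were mostly higher with trametinib. Of 49 listed, 42 were tested, 29 were higher and 6 lower (median 0.48). Tgfbi, a matrix protein that binds collagen and integrins (ENSMUSG00000035493.10, chr13:56609523-56639562), showed the largest rise of all genes named by the rule, from 5.31, 4.74 and 4.54 TPM with chemotherapy to 43.6, 34.03 and 51.5 TPM with trametinib (2.89 ± 0.12, adjusted p = 5.23e-13). Acta2, smooth muscle actin, stood at 15.8, 16.7 and 15.6 and 59.0, 56.4 and 62.5 TPM (1.82 ± 0.10, adjusted p = 1.95e-11), and Col6a1, a collagen VI chain, at 14.7, 15.7 and 15.1 and 49.3, 38.9 and 48.5 TPM (1.52 ± 0.11, adjusted p = 8.94e-10). In all 3 genes the untreated means (4.83, 15.9 and 12.5 TPM) lay close to chemotherapy and the combination means (48.8, 64.7 and 53.4 TPM) close to trametinib. Col3a1, a fibrillar collagen, was the most abundant of those named, at 449.9 ± 31.3 TPM with trametinib and 202 ± 8.57 TPM with chemotherapy (1.15 ± 0.088).

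Proteases and their inhibitors were divided, with 3 higher and 5 lower of 8. Mmp3, stromelysin, was at 15.8, 17.7 and 20.5 TPM with trametinib and 64.5, 71.3 and 75.4 TPM with chemotherapy (-1.92 ± 0.086, adjusted p = 1.73e-12). Mmp13 was lower too (-1.36 ± 0.10) but stayed below 3 TPM in every library of both groups, while Mmp14, a membrane-bound protease, was higher (161 ± 7.80 and 105 ± 2.58 TPM, 0.62 ± 0.056). Tagln, a contractile marker, did not pass (-0.010 ± 0.088, adjusted p = 0.931). The summed level of the 5 fibroblast markers was 6.79 to 9.29 TPM with trametinib and 3.30 to 3.45 TPM with chemotherapy. Of these Pdgfra (0.86 ± 0.085) was above 1 TPM in both groups, Dcn (0.90 ± 0.12) with trametinib alone, and Thy1 was at 0. Lum (means of 0.11 TPM with trametinib and 0.028 TPM with chemotherapy) stayed below 1 TPM. So did Pdpn, whose mean was lower with trametinib (0.012 and 0.049 TPM in the same order). The part of the 5 markers in the matrix result was not tested.

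Interferon-stimulated genes were higher with trametinib in 19 of 32 tested cases and lower in 3 (median 0.38), and 11 of the 43 listed were below the filter. Levels were low. Stat2, a subunit of the interferon-activated factor ISGF3, stood at 6.98, 6.27 and 7.60 TPM with trametinib and 2.49, 3.17 and 3.04 TPM with chemotherapy (1.03 ± 0.10, adjusted p = 3.82e-08), and the untreated mean was 2.23 TPM. Irf1, an interferon regulatory factor, was at 25.2 ± 1.31 and 16.01 ± 0.681 TPM (0.62 ± 0.062), Samd9l, an antiviral restriction factor, at 7.11 ± 0.889 and 2.91 ± 0.266 TPM (1.05 ± 0.093), and Parp9, an ADP-ribosyltransferase, at 7.70 ± 0.925 and 3.45 ± 0.273 TPM (0.96 ± 0.091). Irf1 in untreated cells was at 9.50 TPM, below both groups, as were all 3 untreated libraries in 11 of the 22 called members. Among all called genes without overlap, 740 of 6562 had the untreated libraries below both groups. Isg15, a ubiquitin-like protein, overlapped between the groups (2.60, 1.42 and 2.69 against 1.03, 2.40 and 1.07 TPM) and did not pass (0.39 ± 0.18, adjusted p = 0.0653), though it did without trametinib replicate 2 (0.59) or chemotherapy replicate 2 (0.64). The lower members were Irf9 (-0.21), Dhx58 (-0.50) and Trim25 (-0.34), and the call of Irf9 ended without trametinib replicate 1 (-0.19) or 3 (-0.15) or chemotherapy replicate 3 (-0.19). The core of the interferon response element, GAAANNGAA, stood in 13 of 26 windows (50%) against 8.25% of tested genes. The 2 members higher at the smallest p with a motif upstream, Stat2 (chr10:128270248-128270315, plus strand) and the galectin gene Lgals9 (chr11:78984940-78985008, minus strand; 0.38 ± 0.053, adjusted p = 5.12e-06), are printed with its reverse complement in capitals.
Stat2: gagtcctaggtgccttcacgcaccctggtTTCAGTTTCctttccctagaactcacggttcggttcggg
Lgals9: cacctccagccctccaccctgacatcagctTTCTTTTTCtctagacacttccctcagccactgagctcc

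The genes of MHC class I presentation changed less. Of 19, 9 were higher (47.4%) and 3 lower (15.8%), against 36.9% and 19.7% of all genes tested (median 0.18). Under median ratio scaling 4 were higher and 4 lower. Tapbp, tapasin, which loads peptide onto class I, was at 68.7, 47.4 and 43.8 TPM with trametinib and 42.1, 22.7 and 23.2 TPM with chemotherapy (0.87 ± 0.25, adjusted p = 0.00545), with replicate 1 the highest in both groups. Tap2, a subunit of the peptide transporter, was at 25.2, 25.1 and 25.2 and 11.8, 14.8 and 16.8 TPM (0.77 ± 0.12), and the class Ib chain H2-T23 at 20.1 ± 3.48 and 9.33 ± 1.11 TPM (1.03 ± 0.16). The light chain B2m (432 ± 13.8 and 450.0 ± 25.1 TPM) did not pass (-0.058 ± 0.039, adjusted p = 0.221) except without chemotherapy replicate 1 (-0.10) and under median ratio scaling (-0.18), and the immunoproteasome subunit Psmb10 was lower (-0.63 ± 0.12). Class I heavy chain genes are near-identical copies, so their values are uncertain.

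Among chemokines, 11 of 18 were tested, 5 were higher (45.5%) and 2 lower (18.2%), with a median of -0.020. Of all genes tested 36.9% were higher and 19.7% lower. Cxcl5, which attracts neutrophils, stood at 10.8, 12.1 and 9.99 TPM with trametinib and 1.77, 2.60 and 2.97 TPM with chemotherapy (1.80 ± 0.12, adjusted p = 3.26e-10). The monocyte chemokine Ccl7 was at 9.02, 10.2 and 11.3 and 3.58, 4.61 and 5.76 TPM (0.996 ± 0.13, adjusted p = 2.64e-06), with the combination above both at 19.7, 20.1 and 20.5 TPM, whereas its neighbour Ccl2 overlapped (62.2, 82.0 and 58.7 and 63.4, 88.6 and 92.5 TPM) and did not pass (-0.26 ± 0.12, adjusted p = 0.0628). Ccl2 was called lower without trametinib replicate 2 (-0.41) or chemotherapy replicate 1 (-0.43) and under median ratio scaling (-0.38). Cx3cl1, fractalkine, was lower (2.71 ± 0.406 and 5.71 ± 0.0310 TPM, -0.86 ± 0.081). Cxcl10, the chemokine that recruits T cells through CXCR3, stood at 0.106, 0.219 and 0.310 TPM with trametinib and 0.232, 0.613 and 0.303 TPM with chemotherapy. These libraries overlapped and the difference of -0.18 ± 0.12 did not pass (adjusted p = 0.190). All 6 values are below 1 TPM, where the pseudocount compresses differences.

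**Figure D4:**
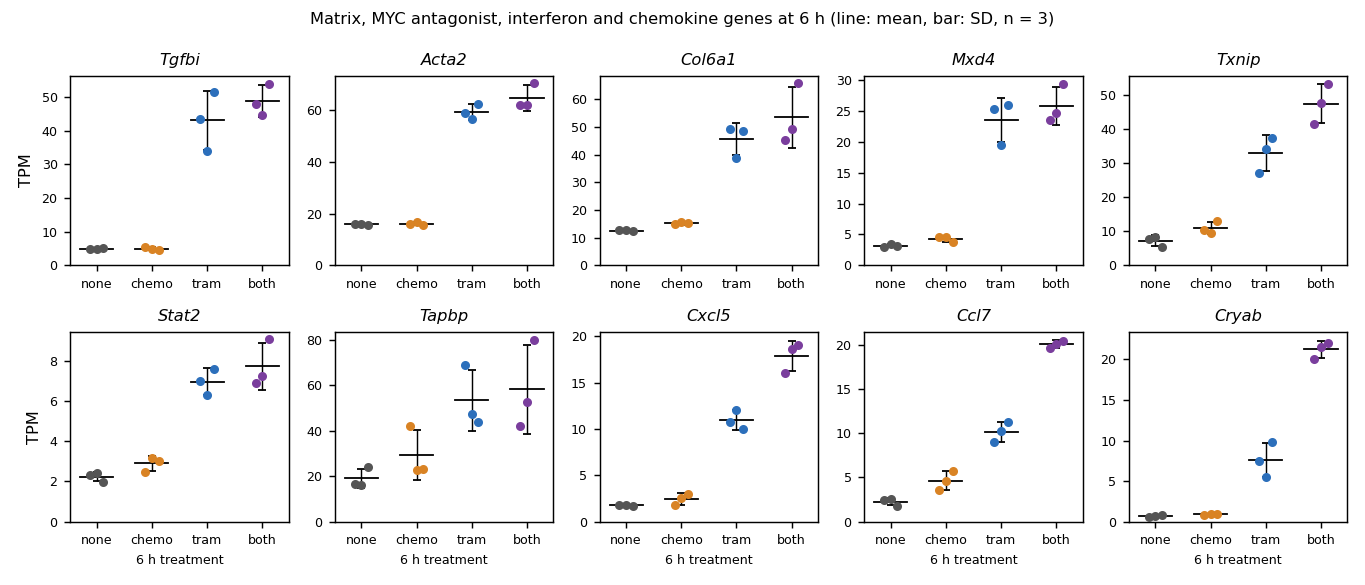
Points are single libraries at 6 h of untreated (none), chemotherapy (chemo), trametinib (tram) and combination (both) cells with means and SD (n = 3), in TPM from 0. In all 10 genes the trametinib libraries lie above the chemotherapy libraries, most narrowly in Tapbp, and in Ccl7 and Cryab the combination libraries (means 20.1 and 21.2 TPM) lie above those of trametinib.

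Genes of receptor kinases and of the pathway from RAS to ERK were higher in 14 of 26 tested cases and lower in 2 (median 0.36). These shares were 53.8% and 7.69%, against 36.9% and 19.7% of all genes tested. In the part from RAS to ERK 6 of 14 were higher (42.9%) and 2 lower (14.3%), nearer to the shares of all genes. The receptor kinase genes gave 8 of 12 higher and none lower, among them Ddr1, a collagen receptor (25.7 ± 2.87 and 15.1 ± 1.62 TPM, 0.73 ± 0.15), and Fgfr1, an FGF receptor (0.67 ± 0.072). Mapk3, which encodes ERK1, was at 112, 119 and 104 TPM with trametinib and 55.1, 66.6 and 69.0 TPM with chemotherapy (0.81 ± 0.088, adjusted p = 2.24e-07). The genes of the drug's targets did not pass, neither Map2k1 (0.14 ± 0.064, adjusted p = 0.0759) nor Map2k2 (0.11 ± 0.21, adjusted p = 0.688). Map2k1 was called higher without chemotherapy replicate 3 (0.18). Rasa1, a GTPase activating protein that turns RAS off, was lower (-0.49 ± 0.057).

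Autophagy genes stood out within the lysosome and autophagy list, which gave 25 of 42 higher and 4 lower (median 0.25). In its autophagy and mitophagy part 15 of 19 were higher. Bnip3, a mitophagy receptor, stood at 124, 117 and 121 TPM with trametinib and 39.9, 37.6 and 39.7 TPM with chemotherapy (1.60 ± 0.12, adjusted p = 1.88e-09), with untreated cells at 49.9 TPM. The ATG8 family members diverged, with Gabarap higher (320.4 ± 16.1 and 192 ± 8.73 TPM, 0.74 ± 0.048) and Gabarapl1 lower (44.2 ± 1.09 and 71.9 ± 2.53 TPM, -0.69 ± 0.045). Genes of cholesterol synthesis were higher in 14 of 25 tested cases and lower in none (median 0.30; 10 higher and 1 lower under median ratio scaling). All 14 were without overlap, and in 11 of them the 3 untreated libraries lay below both groups. Among all genes higher with trametinib and without overlap, 670 of 4243 had them below both. Hmgcs1, the synthase of the first committed steps, was at 44.3 ± 4.26 and 24.7 ± 1.20 TPM (0.82 ± 0.076, adjusted p = 2.63e-08), and Srebf1, a transcription factor of lipid synthesis, at 80.2 ± 7.72 and 51.1 ± 3.57 TPM (0.64 ± 0.089). The heat shock list gave 2 of 13 higher and 5 lower (median -0.075). Its higher members were Hsp90ab1 (0.18 ± 0.072), whose call ended under median ratio scaling (0.058) and without any of 5 single libraries, and Cryab, the small heat shock protein alpha B crystallin, at 7.46, 5.54 and 9.80 TPM with trametinib and 0.819, 0.973 and 0.879 TPM with chemotherapy (2.16 ± 0.13, adjusted p = 9.71e-11).

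Several of the largest differences fell outside the lists. The linker histone gene H1f0 stood at 167, 161 and 165 TPM with trametinib and 34.3, 36.8 and 34.5 TPM with chemotherapy (2.19 ± 0.059, adjusted p = 3.17e-15). Hist1h1c, another linker histone, was at 40.5, 38.5 and 38.9 and 6.50, 4.94 and 3.38 TPM (2.80 ± 0.13), a value that is uncertain because histone genes share sequence and many lack a poly(A) tail. Untreated means (99.2 and 17.9 TPM) lay between the groups in both. Other rises were Lrrc15, a membrane protein of matrix-producing cells (10.8, 8.19 and 13.9 against 1.41, 0.979 and 0.827 TPM, 2.51 ± 0.16), the bHLH factor Atoh8 (6.30, 5.36 and 5.68 against 0.328, 0.175 and 0.327 TPM, 2.41 ± 0.075), the proteoglycan Ogn (2.36 ± 0.10), the CDC42 effector Cdc42ep2 (2.26 ± 0.084), the carbonyl reductase Cbr2 (2.39 ± 0.20), Selenbp1, a selenium-binding methanethiol oxidase (2.20 ± 0.15), and Mylip, the ligase that degrades the LDL receptor (2.23 ± 0.10). In each of these 7 genes the untreated mean lay below 12 TPM and the combination mean nearer to trametinib.

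Falls outside the lists included Wnt7b, a WNT ligand, at 1.144, 1.49 and 0.665 TPM with trametinib and 19.97, 16.5 and 16.05 TPM with chemotherapy (-3.15 ± 0.14, adjusted p = 1.08e-12), and Sh2d5, an SH2 domain adaptor, at 1.32, 1.28 and 1.251 and 17.8, 14.8 and 15.5 TPM (-2.89 ± 0.078, adjusted p = 3.17e-15). Sele, E-selectin, was at 0.297, 0.211 and 0.256 and 7.01, 5.67 and 6.04 TPM (-2.53 ± 0.077) and Arid5a, an RNA-binding stabiliser of cytokine mRNAs, at 4.35, 3.95 and 2.47 and 21.8, 18.8 and 19.9 TPM (-2.23 ± 0.16). None of the 4 had overlapping libraries, and their untreated means of 21.3, 13.4, 4.78 and 19.3 TPM were all well above the trametinib level.

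The untreated and combination libraries were placed for all called genes without overlap. Of 4243 such genes higher with trametinib, 832 had all 3 untreated libraries between the groups, 670 below both, 62 above both, and 2679 had untreated libraries that overlapped a group. Of 2319 lower genes the counts were 378 between, 70 below both, 361 above both and 1510 overlapping. The combination mean was nearer to trametinib in 86.2% of the higher and 74.2% of the lower genes.

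Differences went with the genomic span of the gene. Among 11502 tested protein-coding genes, the median difference was 0.014 for the 2812 genes under 10 kb, 0.046 for 10 to 30 kb, 0.16 for 30 to 100 kb, 0.34 for 100 to 200 kb and 0.55 for the 459 genes of 200 kb or more. In the longest class 73.4% were higher with trametinib and 8.28% lower, against 27.9% and 24.4% in the shortest. Set against the untreated mean, the median in that class was -0.36, -0.48 and -0.45 in the 3 chemotherapy libraries and 0.041, 0.15 and 0.14 in the 3 trametinib libraries. The chemotherapy libraries thus lay below the untreated level for long genes, and the trametinib libraries did not. The longest genes were also expressed at lower levels (median 9.56 TPM against 20.1 TPM in the shortest), and among genes with a mean of at least 5 TPM, a limit added after the data were seen, the longest class still gave 0.56. This is a description across genes, which are not independent replicates.

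Examples of the longest class, chosen after their values were seen, were the engulfment adaptor Gulp1 (17.3, 18.8 and 22.3 TPM with trametinib and 4.32, 3.997 and 3.44 TPM with chemotherapy, 2.05 ± 0.10), the actin-associated Limch1 (10.2, 9.85 and 11.5 and 1.39, 1.60 and 2.45 TPM, 2.05 ± 0.18) and the kinase Camk1d (15.3, 15.2 and 17.96 and 4.55, 4.11 and 3.996 TPM, 1.72 ± 0.078). Camk1d and Limch1 had untreated means of 10.8 and 4.82 TPM, between the groups. Exceptions in the class were Slc7a11, above, and the guidance molecule Sema6d, which was lower (5.60 ± 0.407 and 13.8 ± 1.47 TPM, -1.17 ± 0.065). The median span of the G2 and mitosis list was 29.5 kb and that of the receptor kinase and RAS pathway list 62.4 kb. The part of span in the list results was not tested.

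**Figure D5:**
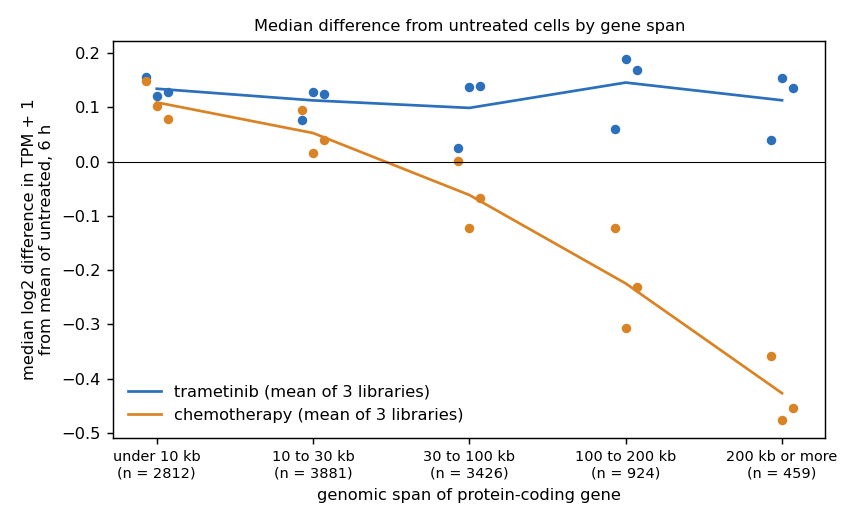
Points are the median log2 difference in TPM + 1 of each library from the mean of the untreated libraries at 6 h (vertical axis), over protein-coding genes in 5 classes of genomic span (horizontal axis), and lines join the medians of the group means. Chemotherapy libraries go from above 0 in the shortest class to between -0.36 and -0.48 in the longest, while trametinib libraries stay above 0 in every class.

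At 24 h the same contrast called 8382 genes (66.6%). Of the genes called at 6 h 4588 were called in the same direction at 24 h (64.5% of the 6 h calls and 54.7% of the 24 h calls) and 862 in the opposite direction (12.1% and 10.3%). The difference itself changed between the times, by the test of 24 h minus 6 h, in 6184 genes (49.2%). Among ERK output genes, Spry4 gave -2.71 ± 0.17 at 24 h and -2.23 ± 0.17 at 6 h, Dusp6 -1.41 ± 0.14 and -1.75 ± 0.14, and Etv4 -2.47 ± 0.19 and -2.32 ± 0.19, and the change with time did not pass for any of the 3 (adjusted p = 0.113, 0.165 and 0.669). Asns gave -1.20 ± 0.053 at 24 h with no change by the test (adjusted p = 0.277).

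Of the 34 tested p53 targets 29 were lower with trametinib at 24 h and 2 higher (35.5% and 31.2% of all genes), and the difference was more negative at 24 h than at 6 h in 27 and more positive in 2 (33.4% and 15.8% of all genes). Mdm2 was at 46.1 ± 1.56 TPM with trametinib and 499 ± 25.1 TPM with chemotherapy at 24 h (-3.41 ± 0.088), and Cdkn1a at 68.2 ± 6.14 and 372 ± 35.2 TPM (-2.43 ± 0.12). Of the 46 genes of G2 and mitosis 12 were higher and 15 lower at 24 h (median 0.0041), and the difference was more negative than at 6 h in 41 and more positive in 2. Plk1 was at 35.7 ± 0.596 TPM with trametinib and 31.4 ± 2.99 TPM with chemotherapy at 24 h (0.18 ± 0.11, adjusted p = 0.152), and Ccnb1 at 208 ± 15.4 and 201 ± 10.1 TPM (0.049 ± 0.060, adjusted p = 0.496). Aspm was still higher at 24 h (0.94 ± 0.10, adjusted p = 7.55e-08). Acta2 reached 141 ± 19.8 TPM with trametinib and 3.16 ± 0.142 TPM with chemotherapy (5.09 ± 0.10), and Cxcl10 was lower with trametinib at 24 h (0.612 ± 0.123 against 2.85 ± 0.367 TPM, -1.25 ± 0.12).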

How the data were processed

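The 24 stranded poly(A) libraries of LLC1 cells hold 3 per treatment and time. Per the submitters' processing notes, reads were handled with bcl2fastq 2.17.1.14 and kallisto 0.45 on GRCm38, and the authors deposited TPM for 82934 transcripts. Of these, 79662 were summed into 28328 genes with GENCODE M21, and the 3272 others (4.45% to 5.87% of TPM in the 6 libraries) were left out. The 12581 genes that reached 1 TPM in 3 or more libraries were tested on log2(TPM + 1) with limma 3.58.1 in R 4.3.3 (8 group means, 16 residual degrees of freedom, variance trend, two-sided). A pseudocount of 1 understates changes of low genes. No label says that triplicates were separate cultures, so the spread behind each p may be technical only. The DESeq2 test that the design text names needs counts and was not run. The comparison, gene lists and markers were chosen with earlier results of these data known.

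On simulated data for trametinib against chemotherapy at 6 h (12581 genes, 50 changed at each fold), 24, 35, 47 and 48 genes were called in the right direction at 1.25, 1.5, 2 and 4-fold, with 9 false calls. The simulation changed far fewer genes than the 7114 called in the data and drew independent noise. These counts may therefore not hold for the data. By rule the text names the 12 largest rises and falls (called, a group mean of 5 TPM or more, no overlap, no predicted genes or pseudogenes), leading members of each list and role, and 12 genes followed at 24 h, a few of which are not reported here. Others were named after their values were seen: Aurkb, B2m, Bora, Camk1d, Ccl2, Cdk1, Cenpe, Col3a1, Dcn, Ddr1, Dhx58, Gulp1, Hba-a1, Hsp90ab1, Irf9, Isg15, Junb, Kif2c, Lig1, Limch1, Map2k1, Map2k2, Mcm5, Mcm6, Polh, Rrm2b, Rrp9, Samhd1, Sema6d, Spred1, Spred2, Trim25 and Trp53inp1. Promoter windows are from RefSeq (GRCm38.p6).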

Additional observations from a re-analysis of the deposited data

Results flagged for a closer look

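For 8 of the 12 genes followed at both times, trametinib minus chemotherapy differed between 24 h and 6 h by limma's test of that change, adjusted over all genes tested. The change in the log2 difference from 6 h to 24 h was negative for Mdm2 (-2.48 ± 0.12, adjusted p = 1.24e-11), Cdkn1a (-1.42 ± 0.17, adjusted p = 1.17e-06), Plk1 (-1.18 ± 0.15, adjusted p = 3.77e-06), Cxcl10 (-1.07 ± 0.16, adjusted p = 2.51e-05) and Ccnb1 (-1.01 ± 0.085, adjusted p = 1.67e-08). It was positive for Acta2 (3.26 ± 0.14, adjusted p = 1.67e-12), Chac1 (1.42 ± 0.20, adjusted p = 7.41e-06) and Hmga2 (0.45 ± 0.14, adjusted p = 0.0144). Chac1, -2.22 ± 0.14 at 6 h, was at 5.004 ± 1.21 TPM with trametinib and 9.36 ± 0.588 TPM with chemotherapy at 24 h (-0.81 ± 0.14), and Hmga2 at 63.8 ± 4.31 and 148 ± 5.61 TPM (-1.20 ± 0.10), so both stayed lower with trametinib.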

How the results depend on the processing

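With the Bonferroni threshold that the design text states (adjusted p under 0.10), 2868 genes were called, 1889 higher and 979 lower. All other settings (pseudocounts of 0.1 and 5, no filter or a mean of 5 TPM, 2 scalings, fewer libraries in the fit, no trend, robust variances) kept the 3 counts within 1.5 times. The share of called genes that were higher was 50.7% under median ratio scaling and 59.5% under upper quartile scaling, against 65.2%. Leaving out 1 library at a time gave 6442 to 6898 called genes, 4129 to 4754 higher and 2144 to 2514 lower. The replicate block called 6885 genes, 4500 higher and 2385 lower. Residuals of libraries with the same number correlated at 0.20, -0.054 and 0.15, trametinib replicate 2 did not correlate best with its own number, and the numbers were not taken to pair samples.

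No named gene that was called changed direction in any of these settings. Calls that ended, or appeared, without 1 library or under median ratio scaling stand beside the gene above. With the Bonferroni threshold 18 of the named calls ended, Tyms, Tapbp, Tgfa, Etv1, Mxd3, Fancg and Ddr1 among them. The calls of Irf9, Rrm2b, Samhd1 and Hsp90ab1 also ended when only the 6 libraries were fitted, and that of Hsp90ab1 with the replicate block. That of Hba-a1 ended with a pseudocount of 0.1 and, like that of Irf9, when only the 12 libraries of 6 h were fitted. The cause was not tested. Depth is unknown, so levels under 1 TPM, such as those of Cxcl10, carry an unknown counting error.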
